A study of Mus musculus with 6 samples.

Results

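Receptors for serotonin, dopamine, noradrenaline, acetylcholine, adenosine and histamine were examined in the hippocampus of mice that carry daDREAM, a form of the repressor DREAM that stays active on DNA regardless of calcium. The list holds 38 genes, each read on its brightest probe set (by the mean of the 6 arrays) among those annotated to that gene alone. Such a probe set was found for 28 genes, of 18193 genes tested in all. The other 10 were not analysed here: 1 of 12 serotonin, 1 of 5 dopamine, 4 of 6 adrenergic and 2 of 5 muscarinic receptor genes, and both adenosine receptor genes. The 28 are 11 serotonin, 4 dopamine, 2 adrenergic, 3 muscarinic, 5 nicotinic and 3 histamine receptor genes.

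The arrays (Affymetrix Mouse Genome 430 2.0) hold hippocampal RNA from 3 mice of the transgenic line L26 and 3 wild type littermates, 1 array per mouse. Expression is basal, and all mice were adult males of mixed C57B6xCBA background, and the L26 mice were homozygous for the transgene. L26 is a single line, so effects of the transgene and of its insertion site cannot be told apart. Nor can those of strain alleles from the mixed background, should these differ between the groups. The promoter that drives it is not given in the sources used here.

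Apart from adenosine, the hippocampus makes almost none of these transmitters itself. Serotonin arrives on fibres from the raphe nuclei, noradrenaline from the locus coeruleus, dopamine from the midbrain and locus coeruleus, acetylcholine from the medial septum and histamine from the hypothalamus. Most of the receptors act through G proteins: some raise cyclic AMP (Gs), some lower it and open potassium channels (Gi and Go), and some release calcium from internal stores (Gq). The nicotinic receptors and the receptor of Htr3a are ion channels. Receptor mRNAs report what hippocampal cells make, not what the incoming fibres carry.

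The 6 array medians ran from 7.27 to 7.32 (log2), and array profiles correlated at 0.9971 to 0.9979 within groups and at 0.9944 to 0.9958 between them. All 18 listed markers of hippocampal pyramidal and granule cells were measured, with a mean level of 10.38 in wild type and 10.54 in L26. No probe set is known here to read the transgene, so the labels were not checked against it. For arrays there is no read depth, and the 3 arrays per group limit the precision.

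Of the 28 receptors, Htr5b rose and Hrh1 fell in L26, and 26 did not pass the threshold (limma, adjusted p under 0.05 over all genes). Both differences were under 1.5-fold. The 2 of 28 (7.14%) stand beside 5.19% of all genes called (945 of 18193), with 2.63% higher and 2.57% lower. With arrays centred on their medians the calls over all genes split into 382 higher and 690 lower, against 478 and 467 as deposited. The 3 L26 values lay entirely on one side of the 3 wild type values for 8 members (28.6%, against 24.1% of all genes), 4 of them higher (13.0% of all genes) and 4 lower (11.0%). An unadjusted p under 0.05 was found for 7 (25.0%, against 20.3%). These shares are close to the background, so the receptors as a list did not stand out by their number of calls. The median difference of the 28 was 0.027 on the log2 scale, beside 0.010 over all genes. The median size of the difference, regardless of sign, was 0.120 for the members and 0.073 for all genes, and the members' median SD was also larger, at 0.10 against 0.071 in wild type. In bulk tissue, fewer cells that make a transcript and less transcript per cell cannot be told apart.

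**Figure D1:**
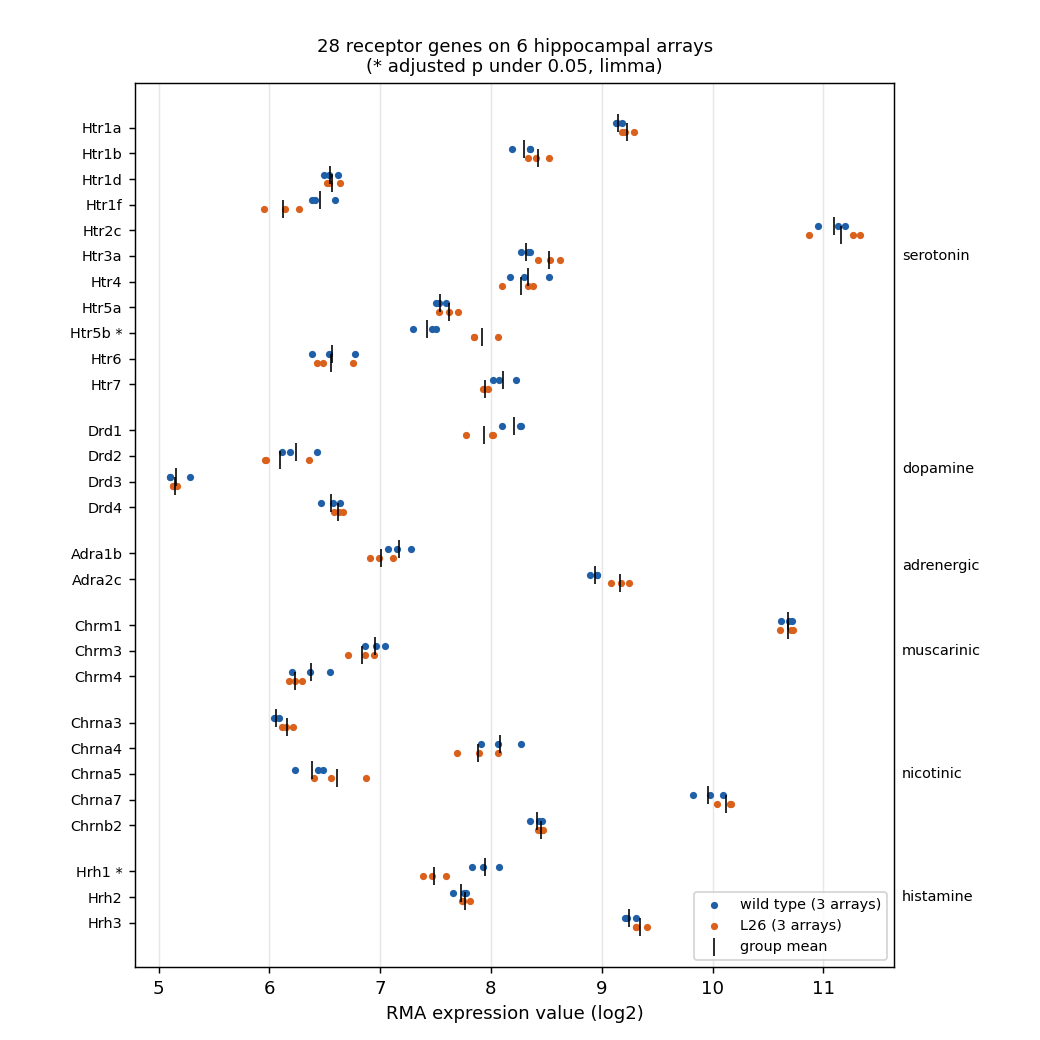
RMA log2 values (x axis) of the 28 receptor genes on each of the 6 arrays, with wild type in blue, L26 in orange and a black tick at each group mean; genes are grouped by transmitter. The groups separate clearly for Htr5b (at most 7.5 in wild type and at least 7.85 in L26) and Hrh1 (7.83 to 8.07 against 7.39 to 7.59), while most other genes overlap.

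The absence of a call does not show that a receptor was unchanged. For all 26 members that did not pass, the 95% interval of the difference, not adjusted for the number of genes, lay within 1.5-fold in either direction (0.585 on the log2 scale). For 10 of the 26 it lay within 0.25 in either direction. The 1.5-fold limit is wider than the differences of Htr5b (+0.50) and Hrh1 (-0.46), so it does not exclude changes of their size. For Htr1f the interval ran from -0.54 to -0.14, and for Chrna5 from -0.04 to 0.49. RMA values can understate fold differences of dim transcripts, so these limits refer to the deposited scale.

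**Figure D2:**
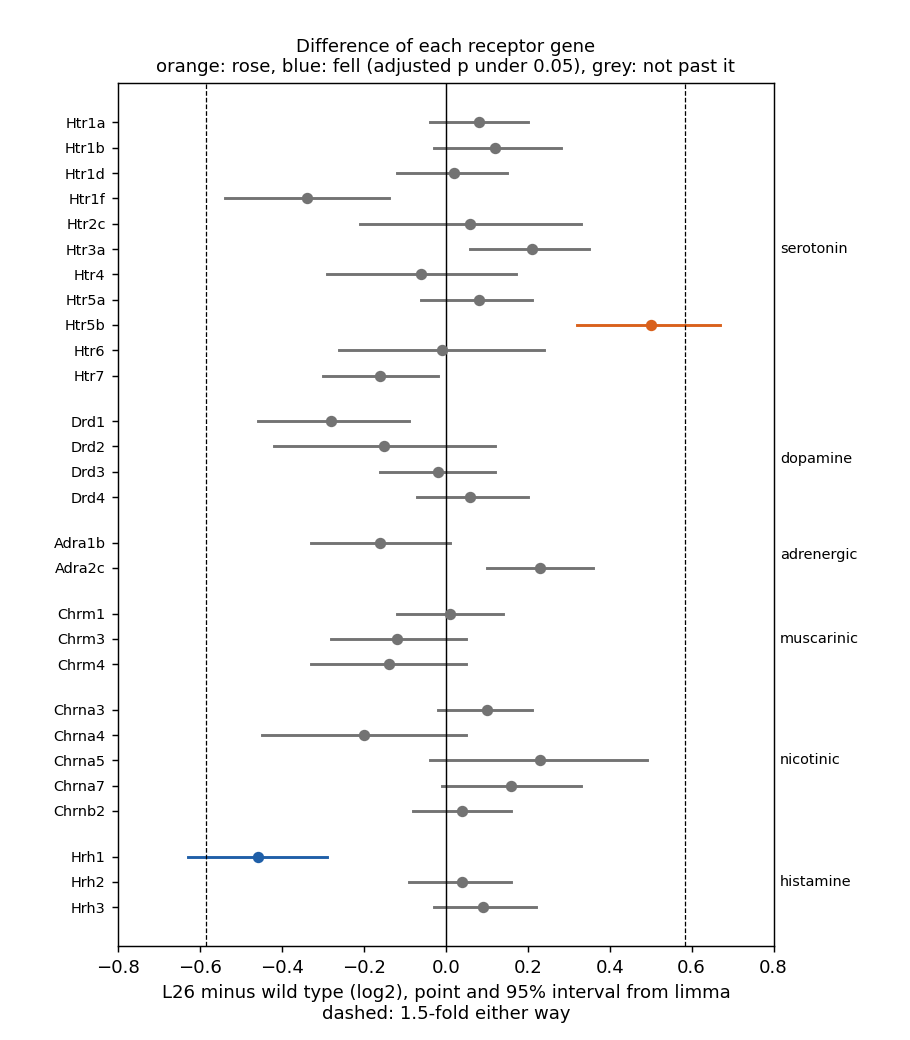
Difference between L26 and wild type (x axis, log2) for each of the 28 receptor genes, with the 95% interval from limma; dashed lines mark 1.5-fold either way. Orange marks the gene that rose (Htr5b, +0.50), blue the gene that fell (Hrh1, -0.46) and grey the 26 that did not pass.

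Serotonin receptors held the largest increase. Htr5b encodes a serotonin receptor whose transcript is found in rodent hippocampus and habenula. Its probe set 1422196_at read 7.47, 7.30 and 7.5 in wild type and 7.85, 8.06 and 7.85 in L26. Every L26 array lay above every wild type array. The means were 7.42 ± 0.11 and 7.92 ± 0.12 (SD, n = 3), a difference of +0.50 (SE 0.08) or 1.41-fold (adjusted p = 0.00917, limma). The 95% interval ran from 0.32 to 0.67, and with any 1 array left out the difference stayed between 0.43 and 0.54 and past the threshold (highest adjusted p = 0.0326). It has no other probe set among those annotated to it alone, so a second reading of the transcript was not to be had.

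The mean of the markers of hippocampal principal cells lay higher on the same L26 arrays. Of 18, 5 rose and 0 fell, with Lct at +0.58, Fibcd1, a marker of CA1 pyramidal cells, at +0.45 and the granule cell gene C1ql2 at +0.43. Not all moved this way: 13 had a higher and 5 a lower mean in L26. Among the lower were Dsp (-0.17, every L26 array lower) and Wfs1 (-0.10), which did not pass. The mean of the list was 10.38 on each wild type array and 10.53 to 10.56 on the L26 arrays (difference 0.166, exact permutation p = 0.1, the smallest that 3 against 3 can give; 0.22 adjusted over the 11 marker lists). Markers of thalamus and habenula had overlapping array means (8.01 to 8.15 in wild type, 8.05 to 8.13 in L26) over members that moved both ways. Of 16 such markers Zic1 rose (+0.96), while 3 fell, namely Rora (-0.30), Slc17a6 (-0.38) and Ntng1 (-0.52); the other 12 were not past the threshold. The habenular factor gene Pou4f1 read 5.68 and 5.65, below the signal of most genes. What part cell composition has in the Htr5b difference was not tested.

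Htr2c was read on the brightest probe set of the list. Its receptor couples to Gq and is very abundant in choroid plexus, the epithelium beside the hippocampus that makes cerebrospinal fluid. Probe set 1435513_at read 11.13, 10.95 and 11.20 in wild type and 11.27, 10.87 and 11.33 in L26. The groups overlapped fully. The difference was +0.06 (SE 0.12, adjusted p = 0.825), and the other probe set gave +0.03. With 1 array left out the difference ran from -0.02 (without L26 replicate 3) to 0.21 (without L26 replicate 2, adjusted p = 0.272), so it has no settled sign. The SD within L26, 0.25, was the largest of the 28 members.

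The mean of 14 choroid plexus markers also varied within both groups. It was 8.68, 9.35 and 9.41 on the wild type arrays and 9.37, 8.69 and 9.74 on the L26 arrays (difference 0.119, exact permutation p = 0.7, 0.856 adjusted over the marker lists). Of the 14, 12 had a higher mean in L26, and the only one past the threshold was Kcne2, an accessory potassium channel subunit gene, which fell by 1.73 (adjusted p = 0.00058, limma). Without Kcne2, a choice made after seeing the data, the mean of the other 13 differed by 0.262 (exact permutation p = 0.5). L26 replicate 2 was low and L26 replicate 3 high for both these markers and Htr2c. Wild type replicate 1, where the choroid plexus markers were lowest, had an intermediate Htr2c value, so the order of the arrays was not the same. Ttr, the transthyretin gene of choroid plexus, read 14.92 and 14.95, near the top of the scale. The part of choroid plexus in the Htr2c signal was not tested.

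**Figure D3:**
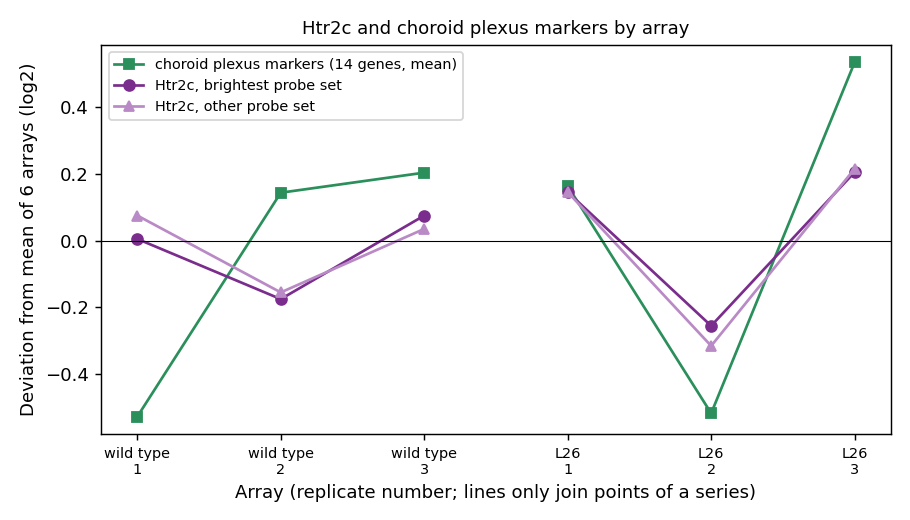
Deviation of each array from the mean of the 6 arrays (y axis, log2) for both Htr2c probe sets and for the mean of 14 choroid plexus markers, by array (x axis). Both Htr2c probe sets are lowest on L26 replicate 2 and highest on L26 replicate 3, as the markers are among the L26 arrays, but the marker mean is lowest on wild type replicate 1, where Htr2c is not.

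Htr1f, Htr3a and Htr7 separated the groups without passing. Htr1f encodes a Gi-coupled receptor. It read 6.41, 6.38 and 6.59 in wild type and 6.14, 6.27 and 5.95 in L26, a difference of -0.34 (SE 0.09, adjusted p = 0.066). It passed with an intensity trend and robust prior (adjusted p = 0.046) and with arrays centred on their medians (adjusted p = 0.0464). Its other probe set, at a lower signal, gave only -0.08, and the mean of both differed by -0.21 (adjusted p = 0.078).

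Htr3a encodes the subunit of the serotonin-gated ion channel and in hippocampus marks a class of interneurons. It read 8.33, 8.27 and 8.35 in wild type and 8.62, 8.53 and 8.42 in L26, so all L26 values were higher (difference +0.21, SE 0.06, adjusted p = 0.101). The mean of 15 interneuron markers lay slightly lower on the same arrays (9.54 on each wild type array, 9.46 to 9.50 in L26, exact permutation p = 0.1, 0.22 adjusted over the marker lists). Reln (-0.37) and Pvalb (-0.30) were the 2 that fell, and 0 rose. The markers moved both ways, with lower means in 10 and higher means in 5. Among the higher were Sst (+0.20, every L26 array higher), Vip (+0.03) and Calb2 (+0.01). Htr7, a Gs-coupled receptor gene, read 8.23, 8.02 and 8.07 against 7.93, 7.94 and 7.97 (difference -0.16, SE 0.06, adjusted p = 0.199). Its other probe set gave -0.15, so both readings had the same direction and nearly the same size.

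The remaining serotonin receptors overlapped between groups. Htr1a, the Gi-coupled receptor that hyperpolarises pyramidal cells, had means of 9.15 and 9.23, and both of its probe sets gave +0.08 (adjusted p = 0.474 for the brighter). Htr1b, a presynaptic receptor of the same family, had 8.30 and 8.42, with +0.12 and +0.13 on its 2 probe sets (adjusted p = 0.367 for the brighter). These paired readings agree in size but neither passes. Htr5a, a relative of Htr5b, had +0.08 (adjusted p = 0.537) and +0.19 on a dimmer probe set (adjusted p = 0.106 over probe sets).

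The Gs-coupled Htr4 had -0.06 (95% interval -0.29 to 0.17) and Htr6 -0.01 (-0.26 to 0.24). Htr1d had +0.02 (-0.12 to 0.15), a sign that turned with arrays centred on their medians or quantile-normalized again. Of the 11 serotonin receptors 7 had a higher and 4 a lower mean in L26.

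Histamine receptors held the largest decrease. Hrh1 encodes the Gq-coupled histamine receptor, which is found on neurons, astrocytes and endothelium and is the target of sedating antihistamines. The 250 bases before its first and its last annotated start on the plus strand are shown, since daDREAM represses through a site whose core is GTCA. They come from RefSeq (GRCm38.p6), at chr6:114397686-114397935 and chr6:114458272-114458521, and capitals mark GTCA on either strand (GTCA or TGAC).

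Hrh1 first start: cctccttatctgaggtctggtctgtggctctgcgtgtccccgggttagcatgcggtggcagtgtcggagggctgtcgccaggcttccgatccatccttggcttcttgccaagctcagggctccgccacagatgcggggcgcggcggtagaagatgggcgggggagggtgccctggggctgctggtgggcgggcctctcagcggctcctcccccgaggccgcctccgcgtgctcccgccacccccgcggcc
Hrh1 last start: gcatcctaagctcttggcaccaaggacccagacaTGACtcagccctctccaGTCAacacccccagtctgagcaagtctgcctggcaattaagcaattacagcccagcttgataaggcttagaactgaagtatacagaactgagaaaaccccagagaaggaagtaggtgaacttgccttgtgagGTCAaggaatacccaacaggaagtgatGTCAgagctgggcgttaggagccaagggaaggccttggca

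The first window is rich in G and C (71.2%) and holds 0 matches. The last (51.2%) holds 4, and 1 of them lies inside TGACTCA, the reverse complement of the AP-1 motif TGAGTCA. Hrh1 has 4 annotated starts, and the 2 windows not shown hold 0 matches. A GTCA match on either strand is found in 80.2% of all 32851 such windows, TGAGTCA in 4.46%, and the cyclic AMP response element TGACGTCA, which contains GTCA on both strands, in 1.55%. So short a motif occurs by letter composition alone, and a match is not a binding site. Sequence after the starts was not searched, so these counts do not cover sites there. Which start the hippocampal transcript uses is not known from these arrays. No promoter sequence of Htr5b was used here.

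The Hrh1 probe set 1438494_at read 7.93, 8.07 and 7.83 in wild type and 7.39, 7.47 and 7.59 in L26. Every L26 array lay below every wild type array. The means were 7.94 ± 0.12 and 7.48 ± 0.10 (SD, n = 3), a difference of -0.46 (SE 0.08), 1.38-fold lower in L26 (adjusted p = 0.0116, limma), with a 95% interval from -0.63 to -0.29. Without L26 replicate 2 the difference was -0.45 and the call was lost by a small margin (adjusted p = 0.0516).

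A second probe set, 1419210_at, gave the same size. It read 6.60, 6.90 and 6.48 in wild type and 6.21, 5.97 and 6.41 in L26, which is -0.46 (SE 0.13) and missed the threshold over probe sets (adjusted p = 0.0864). Its groups did not overlap either, although its spread was wider.

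The vascular list mixes genes of endothelial cells, which can carry Hrh1, with genes of pericytes and smooth muscle. Its mean lay higher in L26: of 19 markers 9 rose and 0 fell, with array means of 8.47 to 8.51 in wild type and 8.79 to 8.85 in L26. Among endothelial genes Cldn5 (+0.95), Kdr (+0.63), Flt1 (+0.43), Tek (+0.39) and Esam (+0.33) rose. Slco1a4 (+0.21), Pecam1 (+0.14) and Cdh5 (+0.09) did not pass. Slc2a1 was the 1 marker with a lower mean (-0.13, not past the threshold). The mean of cortical and subicular markers lay lower, with 5 of 15 fallen and array means of 9.23 to 9.27 against 9.04 to 9.10. These markers moved both ways, with lower means in 10 and higher means in 5, and 0 rose. Each of these lists had an exact permutation p of 0.1 (0.22 adjusted over the marker lists). Astrocyte markers had overlapping array means (11.16 to 11.21 and 11.20 to 11.23), with higher means in 10 and lower means in 4. Of these 14 only S100b fell (-0.28), and 0 rose. Gfap had -0.09 on its brightest probe set, while its 2 others ran from -1.6 to +0.29. The part of these cells in the Hrh1 difference was not tested. Oligodendrocyte markers also lay higher in L26 (10.71 to 10.81 against 10.96 to 11.18; 12 of 16 rose), while pan-neuronal markers (12.87 to 12.91 and 12.86 to 12.88; 0 of 12 called by limma, 1 at an unadjusted p under 0.05) and microglia markers (9.33 to 9.43 and 9.39 to 9.47) had overlapping array means. Of 13 microglia markers 4 rose (Csf1r, C1qb, C1qc and Fcer1g), P2ry12 fell and 8 did not pass.

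The other histamine receptors did not pass. Hrh3, a Gi-coupled receptor that sits on nerve endings and limits transmitter release, read 9.21, 9.31 and 9.23 in wild type and 9.31, 9.41 and 9.31 in L26 (difference +0.09, SE 0.06, adjusted p = 0.399). The groups met at 9.31. Hrh2, which couples to Gs, had +0.04 (95% interval -0.09 to 0.16, adjusted p = 0.771).

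Dopamine receptors lay at or under the middle of the array's signal range. Drd1, the Gs-coupled receptor of dentate granule cells and of striatum, read 8.26, 8.10 and 8.27 in wild type and 8.01, 7.77 and 8.02 in L26. All L26 values were lower. The difference was -0.28 (SE 0.08, 95% interval -0.46 to -0.09), which did not pass (adjusted p = 0.0905), and the other probe set gave -0.24 with groups that did not overlap either.

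Drd1 is also abundant in striatum. The array means of 12 striatal markers overlapped (8.69 to 8.76 in wild type, 8.63 to 8.82 in L26, difference -0.023, exact permutation p = 0.8, 0.88 adjusted over the marker lists). Of these markers Tac1 rose (+0.25), Gpr6 (-0.37) and Rasd2 (-0.48) fell, and 9 did not pass. Ppp1r1b, the gene of the dopamine-regulated phosphatase inhibitor DARPP, read 9.39 and 9.50 (adjusted p = 0.696). The part of striatal tissue in the Drd1 difference was not tested.

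The Gi-coupled Drd2 had means of 6.24 and 6.10 (difference -0.15, 95% interval -0.42 to 0.12). Drd3 read 5.16 and 5.14, in the lowest 5.3% of genes by signal, where these values cannot show whether the transcript is present. Drd4 had 6.56 and 6.62, with +0.06 and +0.02 on its 2 probe sets.

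Of the adrenergic receptors 2 were measured. Adra2c encodes a Gi-coupled receptor that limits noradrenaline release and is also made by postsynaptic neurons. It read 8.89, 8.96 and 8.96 in wild type and 9.25, 9.08 and 9.17 in L26. All L26 values were higher (difference +0.23, SE 0.06, adjusted p = 0.0614), and the call was gained without the dimmest 40% of probe sets (adjusted p = 0.0444) and with an intensity trend and robust prior (adjusted p = 0.042). Its 3 other probe sets disagreed, with +0.10, +0.13 and -0.23, and the mean of all 4 differed by only +0.06 (adjusted p = 0.7). Adra1b, a Gq-coupled receptor gene, had means of 7.17 and 7.01 (difference -0.16, 95% interval -0.33 to 0.01, adjusted p = 0.273).

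Muscarinic receptors did not separate the groups. Chrm1, the Gq-coupled receptor through which acetylcholine excites pyramidal cells, read 10.72, 10.69 and 10.62 in wild type and 10.73, 10.61 and 10.71 in L26. The values overlapped fully. Both of its probe sets gave +0.01, and the 95% interval of the brighter ran from -0.12 to 0.14. This is the most tightly bounded of the 3 muscarinic receptors.

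Chrm4, a Gi-coupled receptor gene, read 6.20, 6.55 and 6.37 in wild type and 6.29, 6.23 and 6.18 in L26 (difference -0.14, SE 0.09, adjusted p = 0.409). The L26 values lay within or just under the wild type range. Chrm3, Gq-coupled as Chrm1 is, had means of 6.95 and 6.84 (difference -0.12, adjusted p = 0.43).

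Nicotinic subunits had small differences of both signs. Chrna7 encodes the alpha subunit that forms channels by itself and is enriched on hippocampal interneurons. It read 10.09, 9.82 and 9.98 in wild type and 10.16, 10.17 and 10.04 in L26. The groups overlapped only through 1 wild type array at 10.09 (difference +0.16, SE 0.08, adjusted p = 0.28), and the other probe set gave +0.19. Chrna4 and Chrnb2 encode the partners of the main brain form of the receptor. Chrna4 had means of 8.08 and 7.88 (difference -0.20, SE 0.11, adjusted p = 0.356).

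The other Chrna4 probe sets gave -0.22 and -0.14. The first of these, 1421202_at, read 7.45, 7.52 and 7.49 in wild type and 7.28, 7.26 and 7.26 in L26, groups that did not overlap, with an adjusted p of 0.0544 over probe sets (limma). So all 3 readings of Chrna4 were lower in L26, and none passed. Chrnb2 had +0.04 (95% interval -0.08 to 0.16), with +0.01 and -0.10 on its other probe sets.

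Chrna5, an accessory subunit gene, had the largest nicotinic difference. It read 6.23, 6.44 and 6.48 in wild type and 6.40, 6.87 and 6.56 in L26 (+0.23, SE 0.12, adjusted p = 0.317). The groups overlapped, and its other probe set gave +0.30. Chrna3, whose subunit is typical of habenula and autonomic ganglia, read 6.09, 6.04 and 6.05 against 6.15, 6.21 and 6.11. Its groups did not overlap, but the difference was +0.10 (adjusted p = 0.34), with 0.00 and +0.04 on the other probe sets.

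In all, 18 of the 28 receptors have more than 1 probe set, with 24 further readings. The further reading had the sign of the one used in 20 of 24 and lay within 0.1 of it on the log2 scale in 18 of 24. These readings come from the same RNA samples, so they repeat the measurement and not the experiment. None of the 24 passed over probe sets with limma (6 had an unadjusted p under 0.05), where 3.92% of all probe sets did (1764 of 45037). The closest to passing were those of Chrna4, Hrh1 and Htr5a given above.

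**Figure D4:**
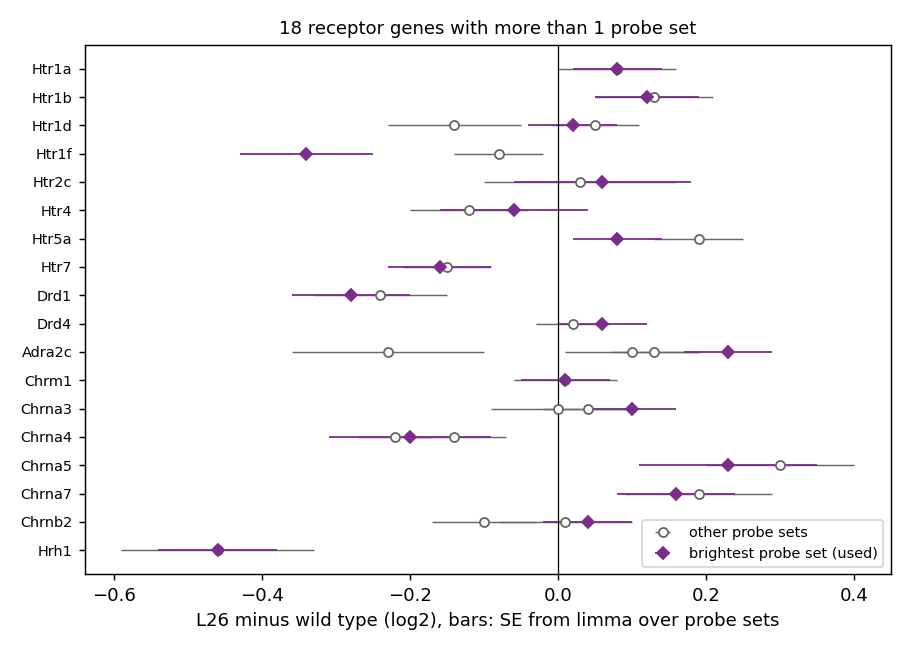
Difference between L26 and wild type (x axis, log2, bars are SE from limma over probe sets) on every probe set of the 18 receptor genes that have more than 1. Filled diamonds are the brightest probe sets, which represent the genes, and open circles the others. They coincide for Hrh1 (-0.46 on both, so the circle is hidden). They disagree in sign for 1 probe set each of Adra2c (-0.23 against +0.23), Htr1d (-0.14 against +0.02) and Chrnb2 (-0.10 against +0.04).

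By baseline signal, the receptors lay between 5.15 and 11.12, within a range of 4.32 to 14.94 over all genes. All genes were divided by their mean over the 6 arrays into 4 bands of nearly equal size, with limits at 6.5, 8.22 and 9.81. They describe probe set signal, and since probe sets differ in affinity they do not rank transcripts by abundance. The lowest band held 6 members (Htr1f, Drd2, Drd3, Chrm4, Chrna3 and Chrna5), of which 0 passed with limma (1 at an unadjusted p under 0.05), beside 40 higher and 28 lower calls among all 4552 genes there.

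Both calls lay in the second band, which held 12 members, Htr5b and Hrh1 among them; of all 4545 genes in it 136 rose and 108 fell. The third band held 7 (Htr1a, Htr1b, Htr3a, Htr4, Adra2c, Chrnb2 and Hrh3), of which 6 had a higher mean in L26 and 0 passed with limma (2 at an unadjusted p under 0.05). Of all 4548 genes in that band 50.8% had a higher mean in L26, 181 rose and 177 fell, and 26.6% had an unadjusted p under 0.05. The highest held Htr2c, Chrm1 and Chrna7. The sizes of the differences of these 3 were at most 0.16.

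**Figure D5:**
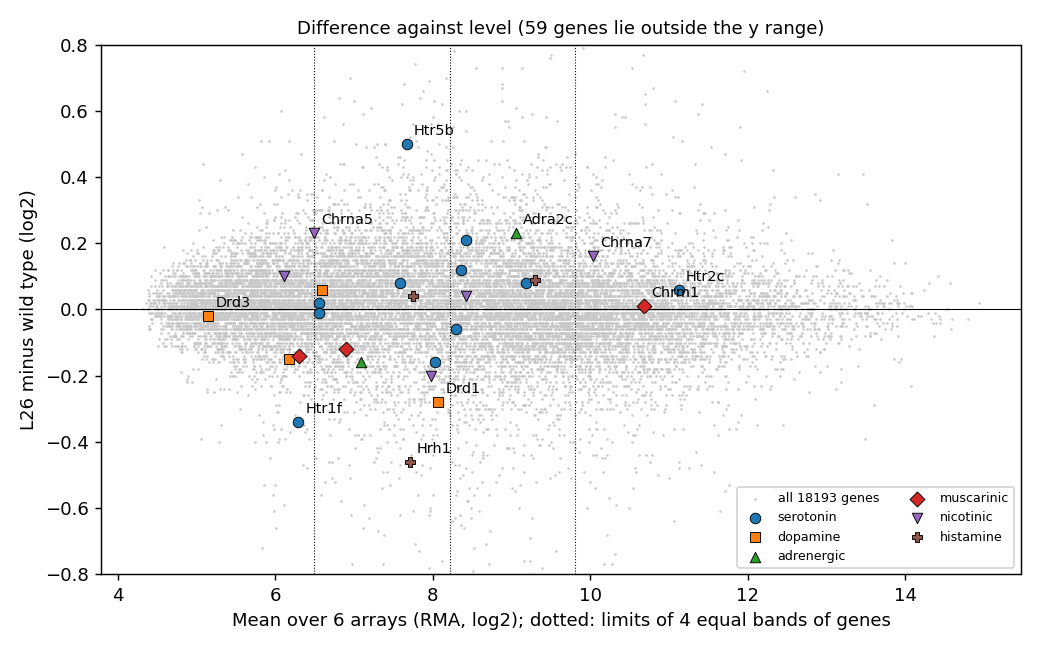
Difference between L26 and wild type (y axis, log2) against the mean over 6 arrays (x axis, log2) for all 18193 genes in grey and the 28 receptors in colour by transmitter, with dotted lines at the limits of the 4 bands; 59 genes lie outside the plotted y range. Htr5b (+0.50) and Hrh1 (-0.46) lie at the edge of the cloud, at mean signals of 7.67 and 7.71, and the other receptors lie within it.

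By coupling, the 5 measured Gs receptors (Htr4, Htr6, Htr7, Drd1 and Hrh2) had lower means in 4 and a median difference of -0.060. The 11 Gi and Go receptors had higher means in 7, with a median of 0.063. The 5 Gq receptors had a median of -0.117 and the 6 ion channel subunits one of 0.128, higher in 5. Htr5b was left out of this grouping, as its coupling is poorly known. Over all genes 53.1% had a higher mean in L26. Of the Gs receptors, Htr4 and Htr6 changed sign in some fits with 1 array left out. No class was tested.

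Genes that serve the same transmitters were described from lists of other receptors, synthesis, transport and breakdown, G protein signalling, and assembly. Of 15 other receptors for these transmitters 0 passed with limma (1 at an unadjusted p under 0.05). They include Adora3, an adenosine receptor gene outside the list of 38, which read 6.92 and 6.91. Their differences ran from -0.17 to 0.19.

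Of 27 genes of synthesis, transport and breakdown 1 rose, 0 fell and 26 did not pass. The gene that rose was Ddc, the aromatic amino acid decarboxylase that makes both dopamine and serotonin. It read 7.19, 7.35 and 7.35 in wild type and 8.03, 7.98 and 7.93 in L26. The groups lay well apart (difference +0.68, SE 0.06, adjusted p = 0.000609), but its other probe set gave +0.16.

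Ache, whose enzyme ends the action of acetylcholine, read 9.33, 9.47 and 9.32 against 9.05, 8.97 and 9.23 (-0.29, SE 0.08, adjusted p = 0.0673), short of the threshold. The committed enzymes of the afferent neurons had low signals and did not differ beyond their spread: Tph2 of serotonin neurons read 4.92 and 4.86, Th of catecholamine neurons 6.44 and 6.43, and Chat of cholinergic neurons 6.04 and 6.08. Adk, the adenosine kinase gene that sets adenosine levels in brain, read 11.71 and 11.63 (adjusted p = 0.48).

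Of 36 genes of G protein signalling downstream of these receptors 2 fell, 0 rose and 34 did not pass. Adcy8, a calcium-stimulated adenylyl cyclase, read 8.51, 8.54 and 8.63 in wild type and 7.94, 7.90 and 7.91 in L26 (difference -0.64, SE 0.05, adjusted p = 0.00037). The groups were more than 0.5 apart at every array. Kcnj9, a subunit of the potassium channel that Gi-coupled receptors open, read 9.94, 10.13 and 10.02 against 8.56, 8.81 and 8.70 (-1.34, SE 0.08, adjusted p = 6.28e-05), while its 3 other probe sets ran from -0.63 to 0.07. Its partner Kcnj6 had -0.24 (adjusted p = 0.0981). Grk3, counted among the 34, had -0.06 on its brightest probe set (adjusted p = 0.649, limma). Its 2 other probe sets gave -1.12 and -0.45, so its readings disagreed in size.

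Of 9 measured genes of receptor assembly and trafficking 0 passed with limma (2 at an unadjusted p under 0.05). The larger of these was Tmem35a, the chaperone gene of nicotinic receptors, at -0.18 (adjusted p = 0.144). Over all 4 lists, then, 1 gene rose and 2 fell of 87 measured, beside 2.63% of all genes higher and 2.57% lower. The lists did not stand out by their number of calls. The mean of the G protein list lay lower in L26 (10.41 to 10.43 against 10.34 to 10.37), with 22 genes lower and 13 higher. That of the assembly list did too (10.20 to 10.24 against 10.13 to 10.18), with 6 lower and 3 higher. The array means of the other lists overlapped or met.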

How the data were processed

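Per the submitters' processing notes, the authors deposited log2 expression values from RMA (affy package, version not stated). RMA as generally run subtracts background, quantile-normalizes arrays and summarises probes. Of 45101 probe sets, 64 AFFX controls were left out and 45037 tested. The platform annotation gave 34945 of them 1 gene symbol, 932 several and 9160 none; only the first were named. Each gene was represented by its brightest probe set over all 6 arrays, leaving 18193 genes. L26 was compared with wild type by limma 3.58.1 in R 4.3.3 (lmFit, eBayes, two-sided), with Benjamini-Hochberg adjustment over all genes (or all probe sets where said) and a threshold of 0.05. SDs are over 3 arrays; SEs and intervals come from the fit. List means were compared by two-sided exact permutation tests over the 11 marker lists, with Benjamini-Hochberg values beside them. The code was tested on simulated data. All members were named where measured, with array values for called, brightest and most different members of each class. Members, lists and tests were chosen with earlier results of these data known. Alternatives were a replicate block, each array left out, repeated quantile normalization, median centring, a filter on the dimmest 40%, a trended robust prior, no _x_at or _s_at probe sets, the mean of a gene's probe sets, and a threshold of 0.1. Coupling groups, promoter motifs and a choroid plexus mean without Kcne2 were added after the data were seen.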

Additional observations from a re-analysis of the deposited data

How the results depend on the processing

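Htr5b kept its direction and its call in all 13 alternatives fitted (difference 0.43 to 0.54, adjusted p = 0.00427 to 0.0422), and Hrh1 in all but 1 (-0.52 to -0.40, adjusted p = 0.00629 to 0.0516, limma), the exception being the fit without L26 replicate 2. The count of members past the threshold was 4 with an intensity trend and robust prior and 5 at an adjusted p under 0.1, where 1734 genes passed in all. Leaving out 1 array gave 1 to 2 members and 401 to 696 genes, and a median difference of the members from 0.013 to 0.054. With the replicate number as a block 3 members passed (Drd1 joined, adjusted p = 0.0494, limma) and 635 genes. The deviations of same-numbered arrays correlated at -0.039, -0.070 and 0.151. With only 3 pairs these correlations cannot settle whether the numbers pair the samples. Without the dimmest 40% of probe sets 19 members remained and 3 passed, and 3 of 28 passed with arrays centred on their medians, where 14 members lay higher and 14 lower (16 and 12 as deposited). With the other alternatives (repeated quantile normalization, no _x_at or _s_at probe sets, the mean of a gene's probe sets) 2 passed. None of the sign changes concerned a member that passed under either setting.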

Other observations

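Promoter windows from RefSeq (GRCm38.p6) were used for 24 of the 28 receptors, 33 windows of 250 bases before a start in all. Of these windows 20 (60.6%) hold GTCA on either strand, against 80.2% of all 32851 windows, and 0 receptors have the cyclic AMP response element TGACGTCA there. These are letter counts only, and windows of 1 gene can overlap.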
